A study of Mus musculus with 12 samples.

Results

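The genes described here are 9 members of the interferon signalling machinery in mouse CD8+ T cells: the receptor chains Ifnar1, Ifnar2, Ifngr1 and Ifngr2, the kinases Jak1, Jak2 and Tyk2, and the inhibitors Socs1 and Socs3. They were chosen by symbol, with results of these data already known, and all 9 were found among the 13780 genes of the count table. The values that were known compare sodium lactate with media, so the calls below describe these genes and are not independent evidence for the choice. All 9 passed the filter on low counts that left 13767 genes for testing.

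RNA was sequenced from CD8+ T cells that had been isolated from spleens of adult C57BL/6J mice by positive magnetic selection, in 3 groups of 4 libraries. Naïve cells were frozen straight after isolation and received no treatment. Cells of the media and lactate groups were stimulated through CD3 and CD28 on beads for 72 h, with human IL-2 at 10 U/ml, in plain media or with 40 mM sodium lactate added. The labels name no transgene, deletion or other allele. The control was plain media and not an equal dose of sodium chloride, so lactate and the added sodium cannot be told apart. The activation label names CD3 and CD8 beads where the protocol names CD3 and CD28. Library totals ran from 14726904 to 21478137 counts. Levels are given as CPM (counts relative to the library total, scaled by the TMM method) within a gene, and as TPM (which also divide by exon length) between genes.

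Type I interferons bind a receptor made of IFNAR1 and IFNAR2, to which the kinases TYK2 and JAK1 are attached. Interferon-gamma, which activated CD8+ T cells themselves secrete, binds IFNGR1 and IFNGR2, which carry JAK1 and JAK2. The kinases phosphorylate STAT proteins, which enter the nucleus and switch on interferon-stimulated genes. SOCS1 and SOCS3 are among the genes that STATs induce, and their products block the JAK kinases, which closes a negative feedback loop. STATs that respond to interferon-gamma bind the gamma-activated sequence, and the complex that holds STAT2 and IRF9 binds the interferon-stimulated response element.

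The promoters of 4 members held one of the motifs searched, and the stretches that carry them are shown because feedback in this pathway acts through such elements. They come from RefSeq windows of 250 bases before to 50 bases after each start (GRCm38), which were found for all 9 members. Capitals mark the motif matches, and each stretch reads 5′ to 3′ on the strand of its gene.
Ifnar1 (chr16:91485150-91485218, plus strand): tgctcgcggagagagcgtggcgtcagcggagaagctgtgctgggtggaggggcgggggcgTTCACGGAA
Ifnar2 (chr16:91372533-91372637, plus strand): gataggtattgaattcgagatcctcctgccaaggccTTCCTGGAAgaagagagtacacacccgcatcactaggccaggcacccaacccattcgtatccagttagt
Socs1 (chr16:10785545-10785679, minus strand): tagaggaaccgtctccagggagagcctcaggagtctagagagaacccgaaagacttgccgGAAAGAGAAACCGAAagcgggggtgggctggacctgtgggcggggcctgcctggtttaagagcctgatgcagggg
Socs3 (chr11:117969452-117969580, minus strand): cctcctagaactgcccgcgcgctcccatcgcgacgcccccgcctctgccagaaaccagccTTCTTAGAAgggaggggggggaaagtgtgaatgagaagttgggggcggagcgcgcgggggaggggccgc

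The gamma-activated sequence TTCNNNGAA, which reads the same on both strands, stood in the Ifnar1, Ifnar2 and Socs3 windows, its first base at -5, -214 and -154 from the start. The Ifnar2 match was also the narrower form TTCCNGGAA, a subset of the first motif. The core of the response element, GAAANNGAA, matched the Socs1 window at -83 and again at -77, and these matches overlap. On both strands, 8.3% of all 32851 windows held TTCNNNGAA, 1.15% held TTCCNGGAA and 8.56% held GAAANNGAA. The windows of Ifngr1, Ifngr2, Jak1, Jak2 and Tyk2 held none of these letters. The printed stretches overlap no exon of the GENCODE annotation, although the last 4 bases of the Ifnar1 match lie past the RefSeq start. A match describes the sequence only.

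The labelled cell type was borne out by its markers in the activated groups. All 8 CD8 T cell genes examined were detected in each group. Their summed levels were 2612.3 to 5032.2 CPM in naïve, 3828.9 to 4532.2 in media and 2975 to 3713.1 in lactate libraries. Naïve libraries also held other cells' transcripts. In naïve 2 the CD8 T cell sum was 3804.6 CPM, below the B cell (5627.8) and myeloid (6947.2) sums. In naïve 4 it was 2612.3 CPM, below 4071.5 and 4645.2 in the same order. In naïve 1 it was 4364.2 CPM, above the B cell sum (3154.6) but below the myeloid sum (6318). Only in naïve 3 did the CD8 T cell sum (5032.2) exceed both (2438.5 and 3684.9). The 9 B cell markers summed to 2438.5 to 5627.8 CPM in naïve, 450.6 to 716.9 in media and 256.4 to 325.6 in lactate libraries, and the activated values were mostly Ighm, since the other 8 markers summed to 17.2 to 35.7 and 10.7 to 13.4 CPM. The 15 myeloid and dendritic markers summed to 3684.9 to 6947.2, 116 to 158.3 and 59 to 106 CPM in the same order, with Xcr1 and Siglech at 0 in both activated groups and Clec9a at 0 in the lactate group. Much of the naïve sum came from Cd74, H2-Aa and H2-Ab1 (means of 2344, 821.4 and 761.5 CPM), which B cells express too. The activated sums were mostly H2-Ab1, at means of 107.7 CPM in media and 71.5 CPM in lactate libraries. Red cell genes reached 85.8 to 3538.9 CPM in naïve and at most 1.87 CPM in activated libraries. In lactate against media, 4 of 9 B cell and 1 of 15 myeloid markers were called lower, against 11.1% of all tested genes. Of the 8 CD8 T cell markers, 3 were called lower (Cd3d, Cd3e and Cd3g, by 0.74 to 0.91 on the log2 scale) and 1 higher (Cd2). The 4 CD4 T cell markers summed to 47.6 to 62.7 CPM in media and 80.3 to 98.4 CPM in lactate libraries, mostly Zbtb7b (means of 47.4 and 81.4 CPM), while Cd4 itself was at 0.348 and 0.541 CPM. The part of these cells in the results was not tested, and in bulk RNA fewer cells of a type and less RNA per cell cannot be told apart. The column names start with numbers, read here as library numbers, which were split into a low run (1 to 9) and a high run (16 to 26). The labels name no run, and whether this split marks a batch is not given. Media 4, lactate 3 and 4 and naïve 4 belong to the high run. Naïve 4 stood apart, with a correlation of 0.9466 to 0.9528 with the other naïve libraries, which correlated with each other at 0.9756 to 0.9854.

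Activation with sodium lactate lowered the transcripts of both type I receptor chains and of Jak1 and Jak2, and raised the inhibitor Socs1. Of the 9 genes, 4 were called lower (Ifnar1, Ifnar2, Jak1 and Jak2) and 1 was called higher (Socs1) in lactate against media by edgeR's quasi-likelihood test, where a call means an adjusted p no larger than 0.01. Among all tested genes 11.1% were called lower and 13.9% higher. The 4 lactate values lay outside the range of the 4 media values for 8 of the 9 genes, 7 below and 1 above, against 44.7% of all genes tested. The median log2 fold change was -0.62 over the 9 genes and 0 over all genes. With the donor as a block, which compares libraries within the 3 donors present in both groups, 7 members were called lower and 1 higher, against 12.7% and 13.6% of all genes. Donors here and below are read from tags in the column names, which the labels do not explain. That block leaves 2 residual degrees of freedom. When the naïve libraries were allowed to add to the spread in the blocked fit, 1 member, Ifnar1, was called.

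**Figure D1:**
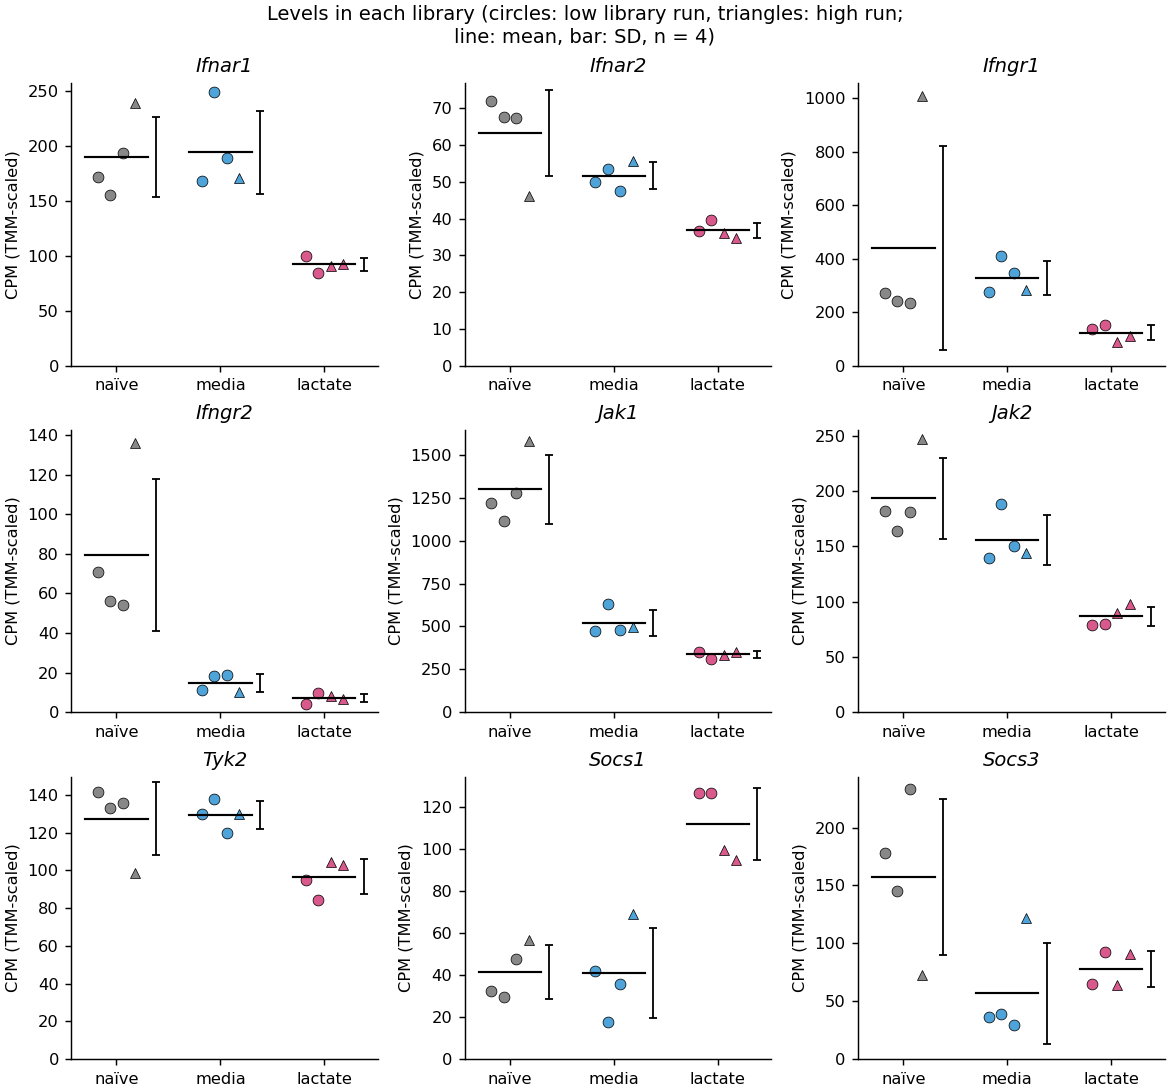
TMM-scaled CPM of each gene in every library by group, with the mean as a line and the SD as a bar beside it (n = 4 libraries per group), circles for the low and triangles for the high run of library numbers. Lactate points lie below media points for the 4 receptor chains and 3 kinases, above them for Socs1 and among them for Socs3, and naïve 4 stands at 1008.5 CPM for Ifngr1.

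Ifnar1 encodes the receptor chain that carries TYK2. Its level was 167.8, 249.2, 189.3 and 170.9 CPM in media replicates 1 to 4 and 100, 84.7, 90.9 and 92.9 CPM in lactate replicates 1 to 4. Every lactate library lay well below the lowest media library. The mean fell from 194.3 ± 37.8 to 92.1 ± 6.32 CPM (SD, n = 4 each). The log2 fold change was -1.08 ± 0.15 (SE, adjusted p = 0.000247). The naïve level was 172.2, 155.6, 193.9 and 239.6 CPM, which overlapped the media range. In the blocked fit the log2 fold change was -0.93. The call held in all 25 alternative fits.

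Ifnar2 encodes the ligand-binding chain that carries JAK1. Media libraries held 50, 53.5, 47.4 and 55.8 CPM and lactate libraries 36.7, 39.5, 36.2 and 34.8 CPM. The groups did not overlap and each varied little. Means were 51.7 ± 3.7 and 36.8 ± 1.94 CPM (SD, n = 4 each), and the log2 fold change was -0.49 ± 0.13 (adjusted p = 0.00929). Leaving out any one library except naïve 4 moved the adjusted p to between 0.010004 and 0.0288, above the threshold, while without naïve 4 it was 0.000281. The call was also lost with a term for the library run (adjusted p = 0.0118). Of the Ifnar2 exon bases, 9.46% lie also in the same-strand gene Gm21970, so reads there are uncertain.

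Ifngr1 encodes the chain that binds interferon-gamma and carries JAK1. Its media values were 275.3, 411.1, 344.3 and 281.8 CPM, and its lactate values were 135.6, 152.3, 89.6 and 111.4 CPM. The lowest media library held more than the highest lactate library by a wide margin. The mean was 328.1 ± 63.4 in media and 122.2 ± 27.5 CPM in lactate, a log2 fold change of -1.42 ± 0.42, the largest decrease of the 9, yet the test did not call it (adjusted p = 0.018). The naïve libraries, which share the estimate of the spread, read 270.9, 241.5, 235.5 and 1008.5 CPM. Without naïve 4 the log2 fold change was -1.43 ± 0.17 (adjusted p = 6.54e-05), and with the donor block it was -1.18 ± 0.10 (adjusted p = 0.000263).

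Ifngr2 encodes the signalling chain that carries JAK2, and it was the scarcest member in both activated groups. Media libraries held 11.2, 18.4, 18.9 and 10.4 CPM (166 to 339 counts), and lactate libraries held 4.3, 9.49, 8.21 and 6.79 CPM (84 to 181 counts). The highest lactate library came close to the lowest media library without reaching it. Means of 14.7 ± 4.55 and 7.2 ± 2.22 CPM gave a log2 fold change of -1.04 ± 0.34 that was not called (adjusted p = 0.0284). It was -0.99 ± 0.15 with the donor block (adjusted p = 0.00184) and -1.04 ± 0.26 without naïve 4 (adjusted p = 0.0056).

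Jak1, the kinase that both receptors share, was the most abundant kinase. It read 472.6, 628.7, 480.3 and 498.1 CPM in media and 353.3, 307.5, 335.3 and 352.5 CPM in lactate libraries. Media 2 stood above the rest of its group, and no lactate library reached the media range. The mean fell from 519.9 ± 73.3 to 337.1 ± 21.5 CPM, a log2 fold change of -0.62 ± 0.12 (adjusted p = 0.00197). Jak1 shares 0.0553% of its exon bases with the opposite-strand gene Raver2.

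Jak2, the kinase on IFNGR2, read 139.9, 188.5, 150.7 and 144.4 CPM in media and 79.2, 79.9, 89.4 and 98.1 CPM in lactate libraries. All lactate values were below 100 CPM and all media values above it. The mean was 155.9 ± 22.2 in media and 86.7 ± 8.95 CPM in lactate libraries, a 1.8-fold decrease (log2 fold change -0.85 ± 0.14, adjusted p = 0.000632).

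Tyk2, the kinase on IFNAR1, moved least of the kinases. Its values were 129.9, 137.7, 119.9 and 129.8 CPM in media and 94.7, 84.2, 104.6 and 103 CPM in lactate libraries, again without overlap. Means of 129.3 ± 7.29 and 96.6 ± 9.33 CPM gave a log2 fold change of -0.42 ± 0.12 that narrowly missed the threshold (adjusted p = 0.0126). It passed with the donor block (-0.43 ± 0.09, adjusted p = 0.0064) and without naïve 4 (-0.42 ± 0.08, adjusted p = 0.00113). The antisense gene 1700084C06Rik covers 8.07% of Tyk2 exon bases, and whether counting used strand is not given in the sources used here.

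Socs1, which encodes a direct inhibitor of JAK kinase activity, went the other way. Media libraries held 41.7, 17.5, 35.6 and 68.9 CPM and lactate libraries 126.6, 126.8, 99.8 and 94.8 CPM. Every lactate library exceeded the highest media library, media 4. The mean rose from 40.9 ± 21.3 to 112 ± 17.1 CPM, 2.74-fold (log2 fold change 1.46 ± 0.33, adjusted p = 0.00444). The difference was larger in the low run (2.09 on the log2 scale, 3 media against 2 lactate libraries) than in the high run (0.5, 1 against 2), and the gap between runs was not tested. The call was lost without media 1, media 3, lactate 1, lactate 2 or lactate 3, at adjusted p values of 0.0105 to 0.0158.

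Socs3, which encodes an inhibitor best known for its action on receptors of the IL-6 family, showed no such pattern. It read 36.3, 39, 29.2 and 121.9 CPM in media and 65.1, 92.3, 64 and 90.4 CPM in lactate libraries. Media 4, a high-run library, exceeded every lactate library, while the other 3 media libraries lay below all of them. The log2 fold change of 0.47 ± 0.44 did not pass the test (adjusted p = 0.431), and without media 4 it was 1.16 (adjusted p = 0.0143). Within the low run the difference was 1.16 and within the high run -0.68, so its direction turned between runs.

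The exact two-sided permutation test over the 4 media and 4 lactate libraries gave p = 0.0286, the smallest value that 70 arrangements allow, for each member but Socs3, for which p was 0.2. Groups without overlap always reach this smallest value, so it restates the lack of overlap given above. Of all genes tested, 44.7% did not overlap.

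Each of the 3 donors with both libraries showed the same direction for 8 genes. For these 8 the media and lactate ranges did not overlap, so any pairing of libraries gives that direction. The sign within donors is therefore no further evidence, and 44.7% of all genes tested likewise did not overlap. Lactate over media was 0.596, 0.447 and 0.543 for Ifnar1 in the low-run donors WT1 and WT3 and the high-run donor WT2. For Ifngr1 the same ratios were 0.493, 0.442 and 0.395. For Ifngr2 they were 0.383, 0.502 and 0.653. The ratios ran from 0.64 to 0.748 for Jak1, from 0.53 to 0.68 for Jak2, from 0.702 to 0.793 for Tyk2 and from 0.624 to 0.832 for Ifnar2, all below 1. Socs1 ratios of 3.04, 3.57 and 1.38 were all above 1. Socs3 gave 1.79, 3.17 and 0.742, up in the low-run donors and down in the high-run donor.

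**Figure D2:**
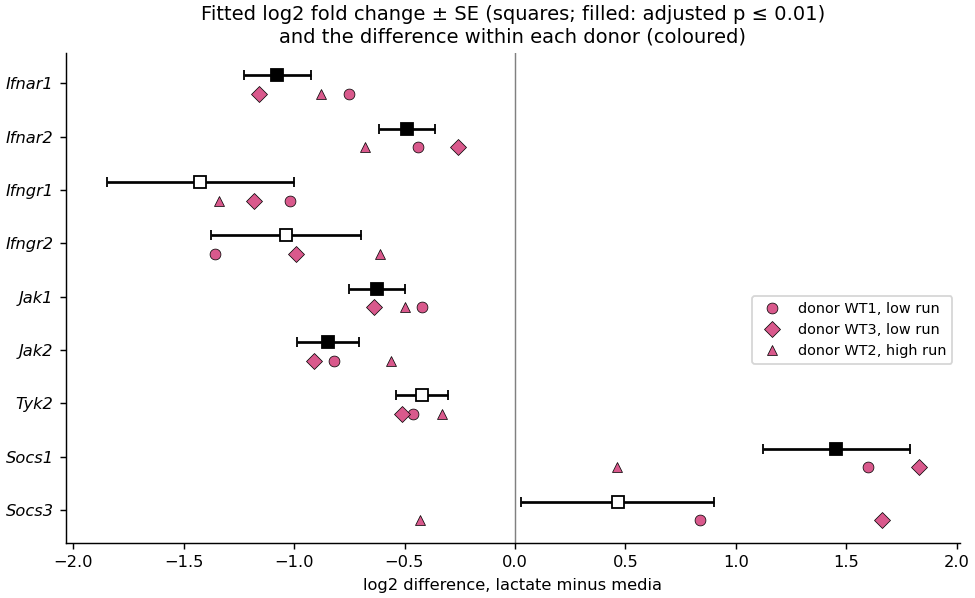
Log2 difference of lactate minus media for each gene on the x axis, with the fitted value and its SE as squares (filled where the adjusted p was at most 0.01, n = 4 per group) and the difference within each of 3 donors as coloured points. Donor points lie left of 0 for all 7 receptor and kinase genes and right of 0 for Socs1, and straddle 0 for Socs3.

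The order of the members by TPM differed between groups. In naïve libraries Jak1 led at 615.6 ± 117.6 TPM (SD, n = 4) and overlapped Ifngr1 (536.8 ± 485.1), a gap separated these from Socs3 (184.4 ± 77.9), and each later neighbour overlapped the next down to Socs1 (49 ± 16.5 TPM). In media libraries Ifngr1 led at 400.3 ± 82.7 TPM (SD, n = 4), then Jak1 at 249.5 ± 37, Ifnar1 at 113.6 ± 23.4 and Jak2 at 107.5 ± 16.5 TPM. Ifnar1, Jak2, Socs3 (66.6 ± 48.6) and Tyk2 (65.3 ± 4.16) overlapped their neighbours in that order, as did Ifnar2 (53.7 ± 2.72) and Socs1 (48.3 ± 23.6), and Ifngr2 came last at 13.6 ± 4.41 TPM, separate from the rest. In lactate libraries Jak1 (147.2 ± 11), Ifngr1 (136.4 ± 35.5), Socs1 (122.2 ± 23.8) and Socs3 (85.1 ± 17.1) formed a chain of overlapping neighbours at the top. Jak2 (54.2 ± 3.64), Ifnar1 (49 ± 4.61) and Tyk2 (44.3 ± 3.1 TPM) followed and overlapped, and Ifnar2 (34.9 ± 3.03) and Ifngr2 (6.01 ± 1.84 TPM) stood apart below them. Socs1 thus ranked 8 of 9 in media and 3 of 9 in lactate libraries.

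Summed by role, the type I receptor chains had a median of 157.9 TPM in media (150.1 to 203.3) and 82 TPM in lactate libraries (79.3 to 92.4). The interferon-gamma receptor chains went from 398.5 (335.5 to 523.2) to 143.2 TPM (101.9 to 181.2), and the kinases from 399.3 (384.3 to 506.6) to 247.2 TPM (228.7 to 260). None of these ranges overlapped. The SOCS pair summed to 87 TPM (68.3 to 217.2) in media and 206.9 TPM (170.9 to 244.4) in lactate libraries, which overlapped through media 4.

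The TPM ratio of Ifngr1 to Ifngr2 had a median of 5.72 in naïve (5.05 to 9.81), 31 in media (24.1 to 35.8) and 21.5 in lactate libraries (14.5 to 41.7). It separated naïve from activated libraries and overlapped between the activated groups. The part of other cells' transcripts in the naïve ratios was not tested. Jak1 over Jak2 was 4.7 in naïve (4.46 to 4.9), 2.34 in media (2.22 to 2.4) and 2.64 in lactate libraries (2.5 to 3.1), with no overlap between any of the groups. Ifnar1 over Ifnar2 ran from 1.72 to 2.61 in media and from 1.2 to 1.53 in lactate libraries, without overlap, and the naïve range of 1.29 to 2.92 overlapped both. Socs1 over Socs3 was 0.202 in naïve (0.181 to 0.777), 0.851 in media (0.446 to 1.21) and 1.46 in lactate libraries (1.04 to 1.93), overlapping between neighbouring groups.

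**Figure D3:**
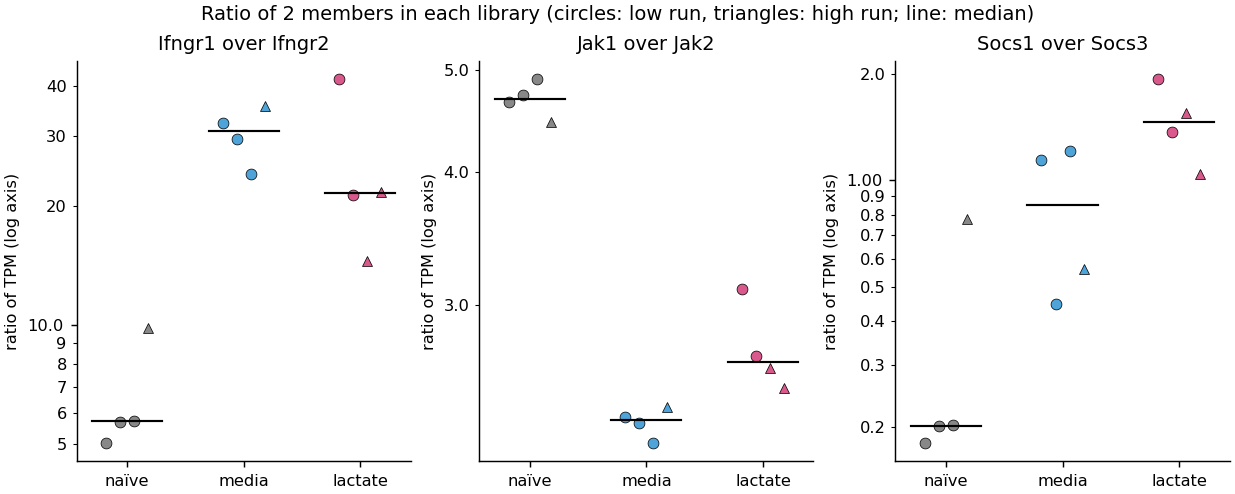
TPM ratio of pairs of genes in each library by group on a log axis, with the median as a line, circles for the low run and triangles for the high run. Ifngr1 over Ifngr2 rises from a median of 5.72 in naïve to 31 in media libraries, while Jak1 over Jak2 falls from 4.7 to 2.34.

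Across the 8 activated libraries the receptor and kinase genes varied together, which in part restates the split into media and lactate. The correlation of log2 CPM was 0.988 between Ifnar1 and Jak1, 0.973 between Jak1 and Jak2 and 0.949 between Ifnar1 and Ifngr1. Pairs with Ifngr2 ran from 0.659 with Tyk2, the lowest of all receptor and kinase pairs, to 0.834 with Jak2. Between these were 0.73 with Ifnar2 and 0.733 with Jak1, while Ifngr1 with Tyk2 was at 0.769. Socs1 correlated with Ifnar1 at -0.937 and with Jak2 at -0.942. These values are descriptions over libraries that share their groups and donors.

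Activation in plain media lowered Ifngr2, the signalling chain of the interferon-gamma receptor, and Jak1. These were the 2 of 9 members called lower in media against naïve, a share near the 29.0% of all genes called lower, and 0 were called higher, where 28.5% of all genes were. At an unadjusted p under 0.05 edgeR gave 5 members lower and 0 higher, against 35.9% and 34.8% of all genes. DESeq2 called 3 lower and 0 higher, against 33.1% and 28.3% of all genes. Naïve libraries carry the B cell and myeloid transcripts given above, and their part in these differences was not tested.

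Ifngr2 fell most, from 70.9, 56, 54.4 and 136.1 CPM in naïve to the 10.4 to 18.9 CPM of media libraries, a log2 fold change of -2.43 ± 0.34 (adjusted p = 3.99e-05). Jak1 fell from 1219.2, 1116.1, 1276.5 and 1581.8 CPM to 519.9 CPM on average (log2 fold change -1.32 ± 0.13, adjusted p = 1.56e-06). Both groups of naïve values lay far above the media ranges. Socs3 was at 177.9, 145.3, 233.2 and 72.3 CPM in naïve libraries, and its log2 fold change of -1.48 ± 0.44 just missed the threshold (adjusted p = 0.01 after rounding). Without media 4 it was -2.24 (adjusted p = 0.000112) and without naïve 4 it was -1.72 (adjusted p = 0.00265). The Socs3 difference was -2.39 within the low run and 0.75 within the high run, which holds 1 library of each of these groups, so its direction turned between runs here too.

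The remaining members were not called in media against naïve, and their ranges overlapped. Ifnar1, Tyk2 and Socs1 had log2 fold changes of 0.03 ± 0.15, 0.02 ± 0.12 and -0.02 ± 0.33, signs that turned in other scalings or with a library left out. Jak2 was at -0.31 ± 0.14 (adjusted p = 0.0621) and Ifnar2 at -0.29 ± 0.13 (adjusted p = 0.0577), and Ifnar2 alone of this pair was called without naïve 4 (-0.42, adjusted p = 0.000463). Ifngr1 was at -0.42 ± 0.42 (adjusted p = 0.388), and without naïve 4 its sign turned (0.39, adjusted p = 0.0705).

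Against the same naïve libraries, cells activated with lactate had 7 members called lower and 1 higher, where 32.0% of all genes were called lower and 33.0% higher. Ifngr2 was at -3.46 ± 0.36 on the log2 scale (adjusted p = 2.23e-06), an 11-fold lower level. Jak1 was at -1.95 ± 0.13 (adjusted p = 5.1e-08) and Ifngr1 at -1.84 ± 0.43 (adjusted p = 0.00175). Jak2 was at -1.16, Ifnar1 at -1.05, Ifnar2 at -0.78 and Tyk2 at -0.40, and Socs1 at 1.43 ± 0.33 (adjusted p = 0.00176). Tyk2 overlapped naïve 4, and its call (adjusted p = 0.00777) was lost without naïve 1, media 1, media 3, lactate 1 or lactate 2, at adjusted p values of 0.0104 to 0.0261. Socs3 was not called (-1.01 ± 0.44, adjusted p = 0.052), but was without media 4 (-1.08, adjusted p = 0.00493). Both activation comparisons use the same 4 naïve libraries and are set side by side only. The B cell and myeloid transcripts of those libraries may enter both, and their part was not tested here either.

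Of the receptor genes, 3 lie within 193 kb on chromosome 16 (GRCm38, chr16:91372783-91565623), in the order Ifnar2, Il10rb, Ifnar1 and Ifngr2. Il10rb encodes a chain shared by the receptors for IL-10, IL-22 and type III interferon. It read 37.6 ± 2.18 in media and 33.9 ± 6.75 CPM in lactate libraries (log2 fold change -0.15 ± 0.14, adjusted p = 0.433), and so was not called between members that were. Of 11 genes of this region in the table, 3 were called lower (Ifnar2, Ifnar1 and Tmem50b) and 1 higher, against 11.1% and 13.9% of all tested genes. These 11 include the 3 members, which were chosen with results known, so the share called lower is not independent of that choice. Outside the members, Tmem50b alone was called lower and Gart alone higher. Tmem50b, next to Ifngr2, fell from 34.2 ± 5.33 to 18.9 ± 4.44 CPM (-0.86 ± 0.20, adjusted p = 0.00492). Gart, a purine synthesis enzyme further along, rose from 102 ± 31.1 to 265.2 ± 56 CPM (1.38 ± 0.23, adjusted p = 0.000663), and Son beside it was at 0.14 ± 0.11 (adjusted p = 0.346). Ifngr1, Jak1, Jak2, Tyk2, Socs1 and Socs3 lie elsewhere, on chromosomes 10, 4, 19, 9, 16 and 11, with Socs1 at chr16:10782240-10785536 far from the cluster.

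**Figure D4:**
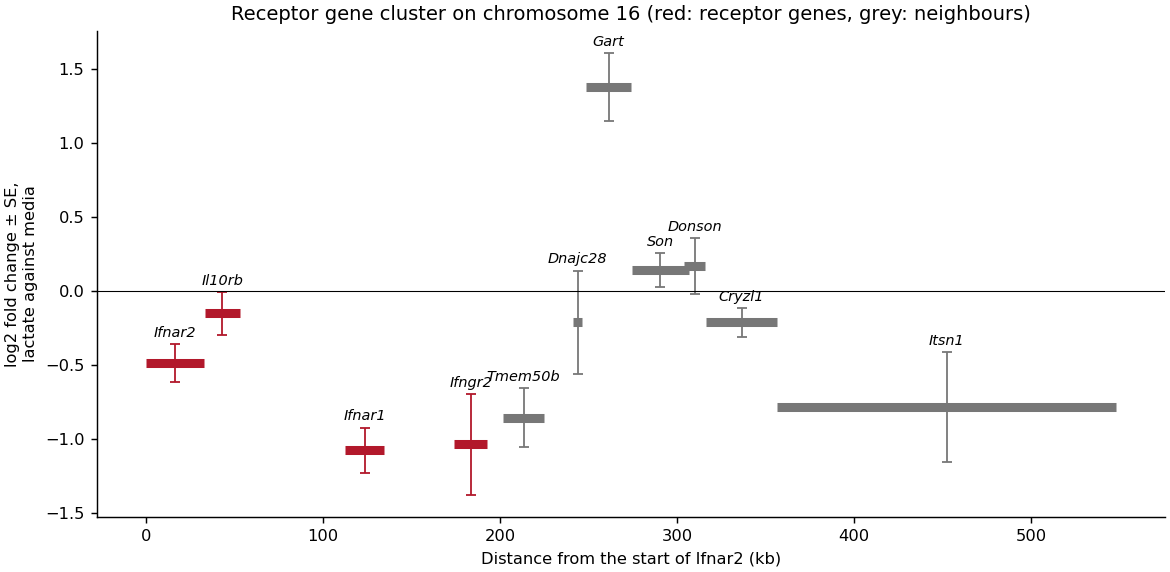
Log2 fold change of lactate against media with its SE (n = 4 per group) for the 11 genes of the receptor region, drawn over each gene's extent as distance in kb from the start of Ifnar2, with receptor genes in red and neighbours in grey. Ifnar1 and Ifngr2 sit near -1, Il10rb, which lies between Ifnar2 and Ifnar1, sits at -0.15, and Gart rises to 1.38.

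Downstream of the kinases, 2 of 7 STAT and IRF9 genes examined were called lower with lactate, with a list median of -0.46. Of all tested genes, 11.1% were called lower. Stat2, which acts in type I interferon signalling, fell from 113.7 ± 9.25 to 68.7 ± 6.05 CPM (-0.73 ± 0.14, adjusted p = 0.00135). Stat4, which acts downstream of IL-12, fell from 136.7 ± 13.7 to 84.2 ± 8.94 CPM (-0.70 ± 0.17, adjusted p = 0.00592). Irf9, the DNA-binding partner of STAT2, was at -0.83 ± 0.26 (adjusted p = 0.0231) and Stat3 at -0.46 ± 0.12 (adjusted p = 0.011). Stat5b was at -0.38, Stat6 at -0.07 and Stat5a at 0.04, and these were not called either.

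Among the 6 other SOCS family genes, 2 were called higher, against 13.9% of all tested genes, with a list median of 0.17. Cish, a STAT5-induced inhibitor of cytokine receptors, rose from 86.4 ± 42.1 to 316.8 ± 29.4 CPM (1.88 ± 0.34, adjusted p = 0.00119). Socs2, another STAT5-induced member, rose from 30.1 ± 9.26 to 77.1 ± 6.56 CPM (1.36 ± 0.27, adjusted p = 0.00205). Both were also called higher in media against naïve, by 2.66 and 3.12 on the log2 scale, where Socs1 was at -0.02. Socs4 was at -0.30, Socs5 at 0.20, Socs6 at 0.15 and Socs7 at -0.34 in lactate against media, none of them called.

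**Figure D5:**
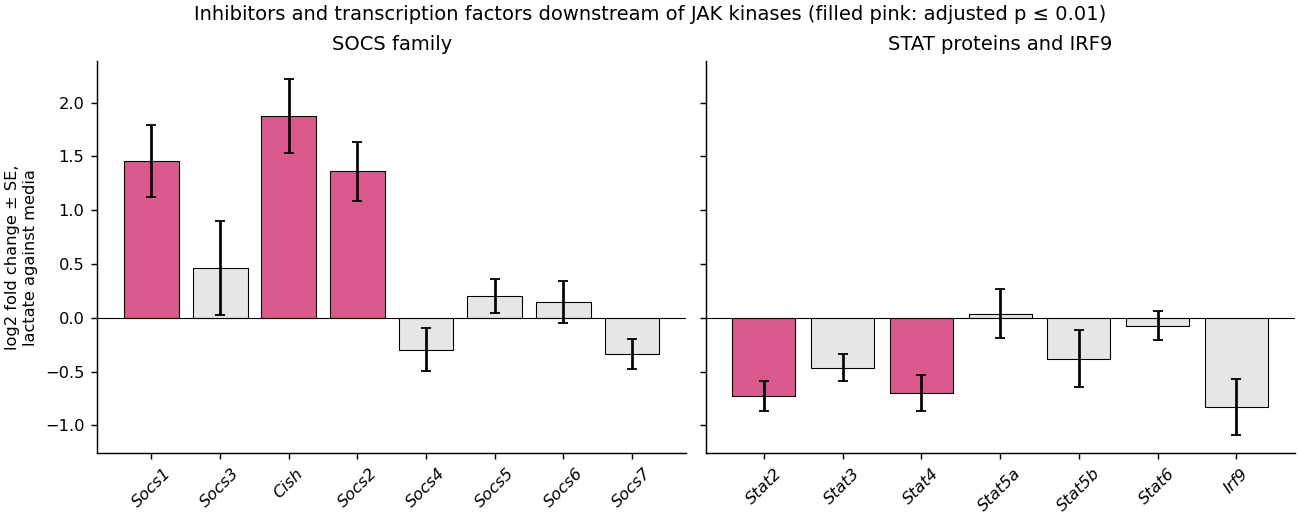
Fitted log2 fold change of lactate against media with its SE (n = 4 per group) for the SOCS family and for the STAT genes examined with Irf9, pink where the adjusted p was at most 0.01. Socs1, Cish and Socs2 rise by 1.36 to 1.88, and Stat2 and Stat4 fall to about -0.7.

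Of 13 other negative regulators of the pathway, 1 was called higher and 4 lower (median -0.22), against 13.9% and 11.1% of all tested genes. Ptpn1, a phosphatase that acts on JAK2 and TYK2, rose from 186.5 ± 10.8 to 298.6 ± 29.8 CPM (0.68 ± 0.09, adjusted p = 0.000225). Cblb, a ubiquitin ligase, fell from 685.1 ± 105 to 288.6 ± 21.1 CPM (-1.25 ± 0.31, adjusted p = 0.00745), and Ptprc, the CD45 phosphatase, fell from 2092.7 ± 321.1 to 1288.9 ± 48 CPM (-0.70 ± 0.10, adjusted p = 0.000345). Of 18 tested genes for other receptor chains that use these kinases, with Jak3, 1 was called higher and 3 lower (median 0.09). The shares of all genes are those just given, and the chains named next do not stand for this list. Il4ra, the IL-4 receptor chain, rose from 177.5 ± 12 to 253.4 ± 20.9 CPM (0.51 ± 0.09, adjusted p = 0.000789). Il6st, the gp130 chain shared by the IL-6 family, fell from 161.8 ± 62.6 to 42.2 ± 8.99 CPM (-1.94 ± 0.24, adjusted p = 0.000126), and Il27ra, its partner in the IL-27 receptor, fell from 98.1 ± 2.84 to 54.8 ± 4.4 CPM (-0.84 ± 0.16, adjusted p = 0.00124). The IL-10 receptor chain Il10ra was at -0.60 ± 0.19 (adjusted p = 0.0222) and Il20rb at 0.23 (adjusted p = 0.819), neither called.

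Of 9 interferon genes listed as ligands, 1 was in the table. Ifng, which encodes interferon-gamma, had 6.15 ± 5.83 CPM in media and 104 ± 81.4 CPM in lactate libraries (40.6 to 213), a log2 fold change of 4.09 ± 0.84 (adjusted p = 0.00239), while both chains of its receptor had lower means. Of 25 type I interferon-stimulated genes, 1 was called higher and 11 lower, with a median of -1.98. Of all tested genes, 13.9% were called higher and 11.1% lower. Xaf1 fell from 16.9 ± 5.12 to 2.64 ± 0.393 CPM (-2.68 ± 0.48, adjusted p = 0.00103) and Mx1, an antiviral GTPase, from 5.73 ± 1.15 to 0.904 ± 0.309 CPM (-2.64 ± 0.53, adjusted p = 0.00201), and Ifi35 rose by 0.52 ± 0.11 (adjusted p = 0.00298). Of 24 interferon-gamma-induced genes examined, 2 were called higher and 7 lower, with a median of -0.49, beside the same shares of all genes. The 2 that rose were Socs1 itself and Irf8, a transcription factor (0.89 ± 0.13, adjusted p = 0.000317), and Gbp2 and Gbp5, which encode guanylate-binding proteins, fell by 1.87 and 1.16 on the log2 scale (adjusted p = 0.001 and 0.00203). Some of these values are uncertain because exon bases are shared with another gene: 25.9% in Ifng (Gm49751, same strand), 26.7% in Stat4 (Gm28177, same strand), 14.9% in Il10rb (Gm21970, same strand), and with antisense genes 19.7% in Gart, 16.8% in Ifi35, 9.51% in Il4ra and 7.46% in Cish.

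By pattern over all 12 libraries, the genes most like each member were found by the correlation of log2 CPM, given as a description. Jak1 was closest to Pan3, Arid4a and Stk4 (r of 0.996, 0.996 and 0.994), and Jak2 to Chd2, Cic and Pgm2l1 (0.989, 0.987 and 0.986). Ifnar1 was closest to Rsf1, Zc3h11a and Sesn3 (0.985, 0.982 and 0.981) and Ifnar2 to Slc46a3, Cd96 and Esr1 (0.989, 0.987 and 0.984). Ifngr2 was closest to Dstyk, Tgfbr1 and Map4k3 (0.989, 0.982 and 0.982) and Ifngr1 to Pnpla8, P2ry10 and BC005537 (0.974, 0.968 and 0.968). Tyk2 was closest to 1810041H14Rik, Pitpnm2 and Phf11 (0.963, 0.962 and 0.958). Socs1 had looser matches in Eif4a3, Mrpl55 and Mcat (0.949, 0.947 and 0.945), and Socs3 the loosest, in Gm15879, Snora31 and Cdk20 (0.915, 0.908 and 0.906).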

How the data were processed

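The authors mapped reads of a stranded mRNA library kit to GRCm38 with STAR 2.7.5b after bcl2fastq 2.20.0.422, discarded PCR duplicates and used featureCounts for the reads with a single mapping that fell in exons. The deposited values are raw counts per gene, already limited to 13780 genes, with an exon length per gene. Counts were analysed here in edgeR 4.0.16 (R 4.3.3): a minimum of 1 CPM in 3 libraries (13767 genes passed), TMM scaling, 1 quasi-likelihood model over 12 libraries in 3 groups, and Benjamini-Hochberg adjustment over all tested genes, with calls at 0.01. Log2 CPM used a prior count of 2, and TPM used the deposited lengths. The coefficient of variation between replicates, from 1 common dispersion over all tested genes, was 23.5%. It is not the spread of any single member, and the counting error of single members was not estimated.

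The 9 members, the gene lists and the motifs were chosen with earlier results of these data known. Some genes of these lists are not reported here. Named genes were all members, the STAT, SOCS and IL-10 receptor genes, and of the other lists up to 2 called genes each way with the largest change and at least 5 CPM in an activated group. Replicates are separate libraries per the labels. Tags in the column names (WT1 to WT3) were read as donors, and the same tag in the low and high runs as different donors. The labels do not say what the tags mark. They pair media 1 with lactate 1, media 3 with lactate 2 and media 4 with lactate 4, and the deviations of the paired libraries from their group means correlated at 0.374, 0.211 and 0.553. Pairs of different donors in the same run gave -0.0249 to 0.371, which overlaps these values. The highest were media 4 with lactate 3 (0.371) and media 2 with lactate 2 (0.297). These correlations therefore do not settle whether the tags mark donors. Alternatives were DESeq2 1.42.0, the likelihood ratio test, other scalings and filters, blocks, a term for the library run, thinned counts, the compared groups alone and leaving out each library. Gene positions came from the GENCODE annotation of GRCm38, in which all 9 members had exon lengths equal to the deposited ones.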

Additional observations from a re-analysis of the deposited data

Results flagged for a closer look

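In 27 groups of 4 libraries (9 genes in 3 groups), 3 values stood so far from the rest of their group that the gap to the nearest library took most of the range, and chance alone flags about 1 in 20 groups. Naïve 4 held 1008.5 CPM of Ifngr1 against 270.9 in the nearest library, media 2 held 628.7 CPM of Jak1 against 498.1, and media 4 held 121.9 CPM of Socs3 against 39.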

How the results depend on the processing

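In lactate against media, 5 members were called in the fit reported and all 9 kept their sign in each of the 25 alternative fits. The count of members called was 8 with DESeq2, with edgeR's likelihood ratio test, with the donor as a replicate block, with the media and lactate libraries alone, and at an adjusted p of at most 0.05. Over all genes, calls rose from 3451 to 4551, 4245, 3614 and 4590 in the first 4 of these settings. The count over all genes at 0.05 is not given here. A term for the library run gave 4 members called, with 3572 calls over all genes. Ifnar2 lost its call there and with upper quartile scaling (adjusted p = 0.0118 and 0.0104). The count of members was 1 with the donor block when the naïve libraries shared 1 level, an alternative chosen after seeing the data. All genes called then numbered 992. Leaving out 1 library in turn gave 3 to 8 members called (8 without naïve 4, and 3 without media 1, media 3, lactate 1, lactate 2 or lactate 3). Over all genes, calls numbered 4845 without naïve 4, 2319 to 3140 in the fits that gave 3 members, and 2252 without media 2. With the title number as a replicate block 4 members were called (Ifnar2 lost its call, adjusted p = 0.0147), with 3256 calls over all genes. These title numbers pair libraries of different donors in part. Without 1 library the count was 2 to 4 in media against naïve (4 without naïve 4) and 7 to 9 in lactate against naïve. The calls over all genes in those fits are not given here, so these counts of members cannot be set against them. The donor block could not be fitted for the naïve comparisons, because naïve libraries share no donor tag with the others. Within runs some signs turned, and the high run holds 1 media and 1 naïve library only. In the high run, Socs3 in lactate against media was -0.68, Tyk2 and Socs3 in lactate against naïve were each 0.07, and in media against naïve Socs3 was 0.75, Ifnar1 -0.49, Ifnar2 0.28 and Socs1 0.29. In the low run, Ifngr1 was 0.45 and Tyk2 -0.08 in media against naïve. Signs in media against naïve also turned in other settings. Ifnar1 was -0.035 under DESeq2 and also under its scaling in edgeR, -0.009 when every library had to hold at least 10 counts, and from -0.14 to 0.15 with 1 library left out. Tyk2 was -0.038 under both of the former, -0.017 under the latter and -0.007 with upper quartile scaling, and from -0.087 to 0.061 with 1 library left out. Ifngr1 ran from -0.71 to 0.39 and Socs1 from -0.46 to 0.23 with 1 library left out. The cause of these turns was not tested.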
